A study of Mus musculus with 6 samples.

Results

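The unfolded protein response and the integrated stress response were followed through 31 of their genes in mouse bone marrow-derived macrophages. The genes were taken from a list of 32 names, grouped by role: 11 genes of the ATF4 branch, 4 sensors and their transcription factors, 14 chaperones and folding enzymes of the endoplasmic reticulum (ER), and 3 genes of ER-associated degradation. A gene was measured where a probe set of the array is annotated with that 1 symbol alone, and 31 of the 32 genes met this out of 22180 genes in all. The folding enzyme Pdia4 shares its probe set with the microRNA gene Mir704 and is not analysed here. Only Edem1 had more than 1 probe set, and the brighter was kept.

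The cells came from C57Bl/6 bone marrow that was grown with 20 ng/ml M-CSF, the macrophage growth factor, for 5 days. They were then scraped, replated and held for a further 6 days under 1 of 3 conditions, each measured on 2 arrays. The M-CSF group received 50 ng/ml M-CSF. The FSL-1 group received 20 ng/ml FSL-1, a synthetic diacylated lipopeptide that activates TLR2 with TLR6, and the series describes these cells as multinucleated giant cells. The FSL-1 + nutlin-3a group received the same dose of FSL-1 together with nutlin-3a at 10 µM, which keeps MDM2 from binding p53 and so raises active p53. The labels do not say whether M-CSF was present along with FSL-1, give no age or sex of the mice, and do not describe the gate of the cell sort that preceded RNA extraction. None of these 3 groups received nutlin-3a without FSL-1. Nothing states that the 2 arrays of a group came from separate animals or cultures, and the spread behind each p-value may therefore be technical only.

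Both responses slow protein synthesis and change transcription when proteins misfold in the ER or when nutrients run short. In the ER, the sensors PERK (gene Eif2ak3), IRE1 (gene Ern1) and ATF6 detect unfolded proteins. PERK, like GCN2, which responds to missing amino acids, phosphorylates the translation factor eIF2, and this favours translation of ATF4, a transcription factor for amino acid supply and stress genes. IRE1 splices the Xbp1 message into its active form, and ATF6 is cut at the Golgi, so that both reach the nucleus and raise chaperones and degradation genes. Macrophages use these arms to adjust secretion, cytokine output and survival. The arrays report total message of each gene, not splicing of Xbp1, cleavage of ATF6 or phosphorylation of eIF2.

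The short sequences that these transcription factors are known to bind could be read in RefSeq windows of 300 bases (GRCm38.p6), from 250 bases before to 50 after the annotated start. Windows were found for 29 of the 32 genes (none for Atf6, Manf and Hyou1), and 6 patterns were searched on both strands. The ER stress element, ERSE, the known site of ATF6 and XBP1 with NF-Y, was searched as CCAAT, 9 bases of any kind and CCACG. It occurred in 7 of the 12 chaperone windows, in no window of the other 3 roles, and in 39 of all 32851 windows (0.119%). These matches are shown first. The genes were listed for their part in these responses, and ERSE is a known site of factors of the same responses. The matches are therefore not independent of how the list was made. Each line gives the strand of the gene from 5′ to 3′ with 25 bases on either side, and capitals mark the match, which reads on the opposite strand in Calr, Creld2 and the second Hsp90b1 line.
Hspa5 ERSE, chr2:34772000-34772068, plus strand: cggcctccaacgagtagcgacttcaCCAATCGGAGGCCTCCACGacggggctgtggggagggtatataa
Hsp90b1 ERSE, chr10:86705613-86705681, minus strand: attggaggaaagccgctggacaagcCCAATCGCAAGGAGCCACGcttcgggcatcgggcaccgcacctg
Hsp90b1 ERSE, chr10:86705508-86705576, minus strand: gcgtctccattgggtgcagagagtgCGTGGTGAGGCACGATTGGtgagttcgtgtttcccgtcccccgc
Pdia6 ERSE, chr12:17266466-17266534, plus strand: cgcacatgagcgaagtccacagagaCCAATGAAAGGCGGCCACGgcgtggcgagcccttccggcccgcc
Dnajc3 ERSE, chr14:118937802-118937870, plus strand: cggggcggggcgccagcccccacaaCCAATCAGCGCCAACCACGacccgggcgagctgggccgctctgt
Creld2 ERSE, chr15:88819495-88819563, plus strand: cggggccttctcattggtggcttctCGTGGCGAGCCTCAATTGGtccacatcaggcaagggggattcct
Calr ERSE, chr8:84847050-84847118, minus strand: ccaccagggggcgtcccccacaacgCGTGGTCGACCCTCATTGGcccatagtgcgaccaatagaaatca
Canx ERSE, chr11:50325775-50325843, minus strand: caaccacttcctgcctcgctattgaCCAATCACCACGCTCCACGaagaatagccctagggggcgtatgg
Matches began between 65 bases (Hspa5) and 212 bases (the first Hsp90b1 line) before the start, and Hsp90b1 carried 2 of them.

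The C/EBP-ATF response element, CARE, the known site of ATF4 with C/EBP partners, was searched as TGATGCAA. It occurred in 3 of the 11 ATF4 branch genes (Atf3, Chac1 and Nupr1) and in Herpud1, against 294 of 32851 windows (0.895%). The first count is of genes, of which Atf5 had more than 1 window, and the last is of windows. A second ER element, ERSE-II (ATTGG, 1 base of any kind, CCACG), occurred in Herpud1 and in Dnajb11, where it lies after the start, against 12 windows in all (0.0365%). Herpud1 thus held both kinds of match, 112 bases and 52 bases before its start. They are printed because Herpud1, Nupr1, Chac1 and Atf3 each passed the test in at least 1 comparison below. Capitals mark the match, and all 4 CARE matches read on the opposite strand.
Nupr1 CARE, chr7:126625548-126625605, minus strand: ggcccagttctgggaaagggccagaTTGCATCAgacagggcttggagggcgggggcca
Chac1 CARE, chr2:119351024-119351081, plus strand: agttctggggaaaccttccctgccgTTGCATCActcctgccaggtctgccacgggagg
Atf3 CARE, chr1:191183411-191183468, minus strand: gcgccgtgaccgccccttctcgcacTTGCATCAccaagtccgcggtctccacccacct
Herpud1 CARE, chr8:94386292-94386349, plus strand: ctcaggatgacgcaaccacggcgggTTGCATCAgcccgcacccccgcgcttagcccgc
Herpud1 ERSE-II, chr8:94386352-94386412, plus strand: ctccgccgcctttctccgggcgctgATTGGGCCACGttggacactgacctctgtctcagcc
A looser CARE, TGATGNAAT, was found in Nupr1 alone, overlapping the match shown, and in 0.965% of all windows. The core of the XBP1 element, TGACGTG, was found in Hspa5 alone and in 2.01% of all windows, and its longer form TGACGTGG in none of the 29 against 0.676%. A match is a run of letters in this window, and binding was not measured.

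Values are log2 expression, so that 1 unit is a doubling. All 6 arrays were alike in scale, with medians of 5.05 to 5.14, and correlated at 0.9929 to 0.9951 within groups and 0.9788 to 0.9858 between groups. All 8 macrophage markers, such as Adgre1, Csf1r and Cd68, lay above the median of all genes (5.51), and their summed level was 14.87 to 14.98 on the 6 arrays. Single macrophage markers nonetheless moved (limma, adjusted p under 0.05): with FSL-1 Itgam and Adgre1 rose by 0.74 and 0.56 and Csf1r, the M-CSF receptor, fell by 0.87. With nutlin-3a Fcgr1 and Cd14 fell by 1.58 and 1.12 against FSL-1 (adjusted p = 0.00228 and 0.00235), and also against M-CSF, by 1.06 and 0.70. Markers of B and plasma cells, which are rich in ER chaperones, had a summed level of 8.26 to 8.27 with M-CSF, 8.37 to 8.39 with FSL-1 and 8.29 to 8.39 with both agents, and 7 of 10, including Cd79a, Ms4a1, Jchain and Tnfrsf17, lay under that median. Among the 10, Cd79b rose with FSL-1 by 0.56 (limma, adjusted p = 0.0426). Sdc1 rose by 0.74 with both agents against M-CSF (limma, adjusted p = 0.0165). Irf4 fell by 1.19 with FSL-1 and by 1.17 with both agents against M-CSF (limma, adjusted p = 0.00243 and 0.00166). Of 8 neutrophil markers 7 lay under the median of all genes, of 5 dendritic cell markers 4, and of 5 T cell markers 4, the exception there being Cd4. The summed level of the neutrophil markers was 7.56 to 7.61 with M-CSF, 8.09 to 8.10 with FSL-1 and 7.96 to 8.09 with both agents, and S100a8 alone of the 8 rose with FSL-1, by 2.40 (limma, adjusted p = 0.000825). The dendritic cell markers stood at 9.01 to 9.20, 9.37 to 9.41 and 9.17 to 9.25, and 0 of the 5 passed in any comparison in limma (adjusted p under 0.05). The T cell sum was 10.54 to 10.82, 9.68 to 9.81 and 10.29 to 10.38, and Cd4 fell by 1.01 with FSL-1 (limma, adjusted p = 0.00636). No stress response gene had a mean over the 6 arrays under the median of all genes, the lowest being 5.72. In single groups Chac1 (5.45 with M-CSF and 5.27 with both agents) and Manf (5.30 with both agents) lay under it.

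The summed level of every marker list but that of T cells was highest on average with FSL-1, as was the mean of most stress genes. For the fibroblast and stromal markers it was 8.08 to 8.31 with M-CSF, 8.34 to 8.89 with FSL-1 and 7.93 to 7.97 with both agents. The highest value was that of FSL-1 replicate 2, where Col1a1 reached 7.43 and Postn 6.77. Of the 7 markers 0 passed limma's test with FSL-1, Col1a2 alone fell when nutlin-3a was added, by 0.80 on the log2 scale (adjusted p = 0.0292), and 5 of 7, among them Dcn and Pdgfra, lay under the median of all genes. Without FSL-1 replicate 2 the median change of the 31 stress genes was 0.34 with FSL-1 and -0.53 when nutlin-3a was added, against 0.43 and -0.65 with it. Without FSL-1 replicate 1 instead, these medians were 0.63 and -0.73. Leaving out an array removes all of its genes, not these markers alone. The part of any of these markers in the results was not tested. In bulk RNA, fewer cells of a type and less message per cell cannot be told apart.

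Every call among the 31 genes was a rise with FSL-1 or a fall when nutlin-3a was present. With FSL-1 against M-CSF, 14 genes rose and 0 fell, against 3.91% of all genes that rose and 2.95% that fell (limma, adjusted p under 0.05). At an unadjusted p under 0.05 these counts were 18 and 2, against 10.7% and 10.5% of all genes. The median change of the 31 genes was 0.43, that of all genes -0.01, and 25 of the 31 had both FSL-1 arrays above both M-CSF arrays, which 24.6% of all genes did. With FSL-1 + nutlin-3a against FSL-1, 17 fell and 0 rose, against 4.12% and 2.38% of all genes, and at an unadjusted p 27 fell and 0 rose, against 10.8% and 10.4%. The median change was -0.65 against 0.02 for all genes, and 28 of 31 had non-overlapping lower arrays, against 23.7% of all genes. With FSL-1 + nutlin-3a against M-CSF, 6 fell and 0 rose, against 4.94% and 4.58% of all genes, and at an unadjusted p 14 fell and 2 rose, against 11.9% of all genes in either direction. Here the median was -0.28 against 0.02, and 23 of 31 lay below both M-CSF arrays, against 24.2% of all genes. None of the 31 had a mean under the median of all genes, while these shares include dim genes. With genes under that median left out, 1419 genes rose and 1263 fell with FSL-1. With nutlin-3a these counts were 1023 and 1556, and against M-CSF 1492 and 1798. The shares of called genes among brighter genes are therefore larger. In that fit 16 stress genes rose and 2 fell with FSL-1, 26 fell with nutlin-3a, and 11 fell and 1 rose against M-CSF. The 3 comparisons share arrays, so a FSL-1 array that is high by chance enters the first upward and the second downward. The genes and the related lists below were chosen with earlier results of these data known. Their counts beside the shares of all genes are therefore not independent of these data.

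**Figure D1:**
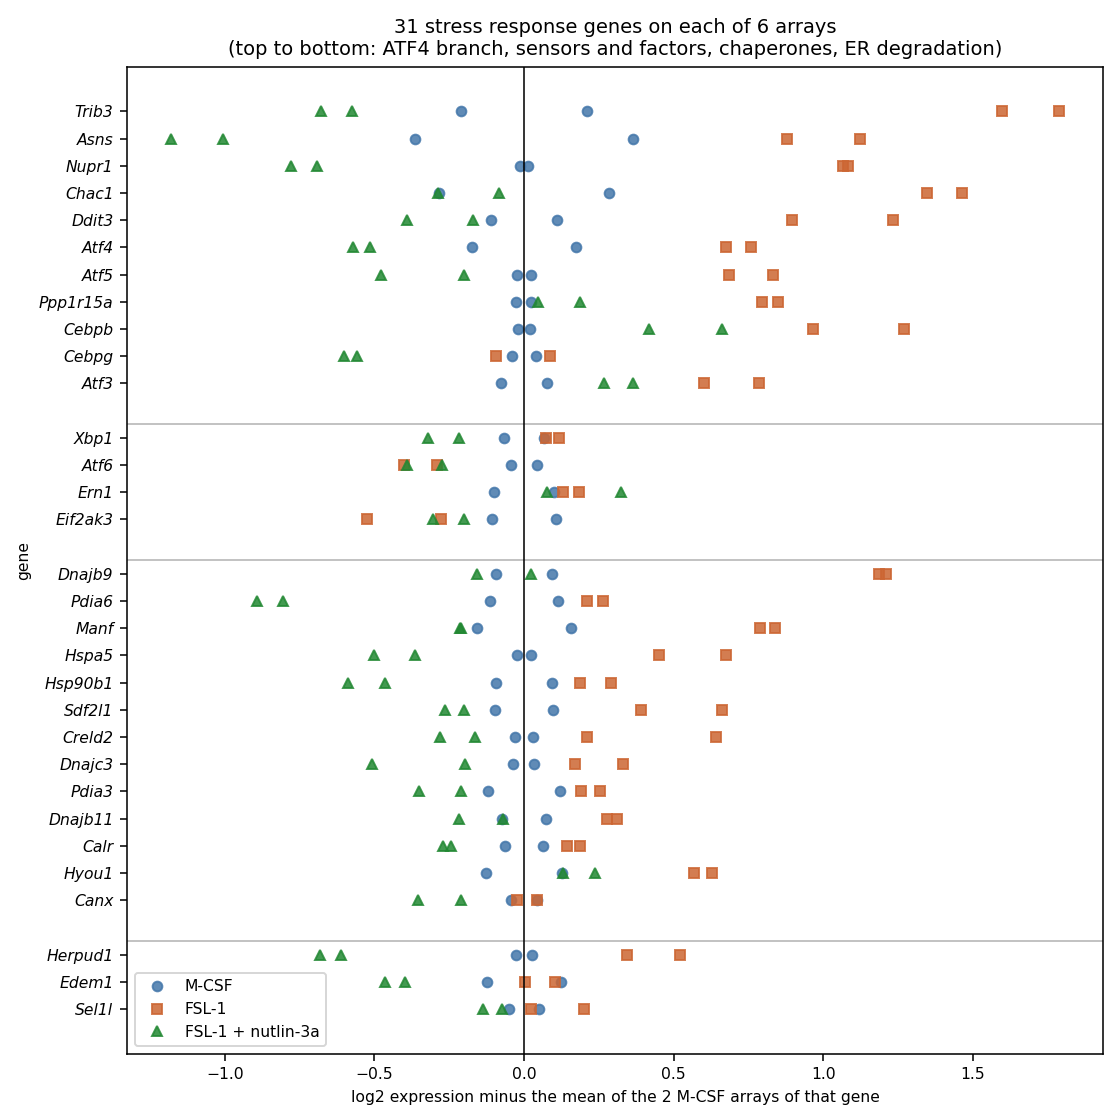
Each row is 1 gene and each symbol 1 array (M-CSF circles, FSL-1 squares, FSL-1 + nutlin-3a triangles), placed on the horizontal axis by its log2 expression minus the mean of that gene's 2 M-CSF arrays. In 25 of the 31 genes both squares lie right of both circles, and in 28 both triangles lie left of both squares.

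Gene by gene, 9 rose with FSL-1, fell with nutlin-3a and did not pass against M-CSF: Atf4, Atf5, Chac1, Ddit3, Dnajb9, Hspa5, Manf, Ppp1r15a and Trib3. Asns and Nupr1 rose, fell and also passed below M-CSF. Atf3, Cebpb and Hyou1 rose with FSL-1 and did not pass with nutlin-3a. Cebpg, Herpud1, Hsp90b1 and Pdia6 fell with nutlin-3a and against M-CSF without having passed with FSL-1, and Dnajc3 and Sdf2l1 fell with nutlin-3a alone. The other 11 passed in no comparison. Calls rest on few arrays: leaving out 1 of the 4 compared arrays left 7 (M-CSF replicate 1 out), 12 (M-CSF replicate 2 out), 7 (FSL-1 replicate 1 out) or 5 (FSL-1 replicate 2 out) of the 14 rises, and Trib3, Chac1, Nupr1, Cebpb and Dnajb9 were called in all 4 cases. Of the 17 falls, 11 to 13 passed, with 11 genes called in all 4 cases, and of the 6 genes below M-CSF, Nupr1 and Pdia6 were called in all 4.

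The rises of Atf4, Asns, Atf3, Manf and Hyou1 passed only with M-CSF replicate 2 left out, those of Ddit3 and Ppp1r15a failed only without FSL-1 replicate 2, and those of Atf5 and Hspa5 failed in each of the 4 cases. Among the falls with nutlin-3a, Cebpg, Dnajc3 and Sdf2l1 failed in each case, Ppp1r15a and Hsp90b1 in 3 cases, including both without a FSL-1 array, and Manf without FSL-1 replicate 2. Against M-CSF, Cebpg, Hsp90b1 and Herpud1 failed in each case, and Asns passed only with M-CSF replicate 1 left out. In the other direction, moderation with a trend and robust variances gave 27 falls with nutlin-3a in place of 17 and 14 against M-CSF in place of 6. Among the genes added were Calr, Canx and Pdia3 with nutlin-3a and Atf4, Trib3 and Hspa5 against M-CSF.

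Calls were made for most of the ATF4 branch: 10 of its 11 genes rose with FSL-1 (median 1.00) and 9 of 11 fell when nutlin-3a was added (median -1.26). The shares of all genes with these calls were 3.91% and 4.12%. Atf4 itself, whose protein is controlled mainly at translation, stood at 8.42 and 8.77 on the M-CSF arrays, 9.35 and 9.27 with FSL-1, and 8.02 and 8.08 with both agents. The 3 groups did not overlap and nutlin-3a took it below M-CSF. In limma's fit it rose by 0.72 (SE 0.141, adjusted p = 0.0238) and fell by 1.26 (adjusted p = 0.0026), while the difference from M-CSF, -0.54, did not pass (adjusted p = 0.0522).

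Trib3, a pseudokinase that binds AKT and ATF4 and is itself induced by ATF4 and CHOP, had the largest change of the 31 genes in both steps. Its arrays read 6.11 and 6.53 with M-CSF, 7.92 and 8.11 with FSL-1, and 5.74 and 5.64 with both agents. It rose 3.23-fold (log2 1.69, SE 0.161, adjusted p = 0.000932 by limma) and fell 4.99-fold (log2 -2.32, adjusted p = 0.000344). The M-CSF arrays differed by more than those of the other groups, and the value with both agents lay 0.63 below them without passing (adjusted p = 0.0501).

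Ddit3 encodes CHOP, the C/EBP-like factor that ATF4 induces and that can promote apoptosis under lasting stress. It read 7.43 and 7.21 with M-CSF, 8.22 and 8.56 with FSL-1, and 6.93 and 7.15 with both agents. The FSL-1 arrays stood apart from the other 4, and the groups with M-CSF and with both agents did not overlap although they were close. The changes were 1.07 (adjusted p = 0.00777, limma) and -1.35 (adjusted p = 0.00325), with -0.28 against M-CSF (adjusted p = 0.338).

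Chac1, which degrades glutathione and is a target of ATF4 and CHOP, carries the CARE match printed above. Its values were 5.17 and 5.74 with M-CSF, 6.92 and 6.80 with FSL-1, and 5.37 and 5.17 with both agents. The M-CSF arrays lay far apart, and those with both agents fell within or at the edge of their range. The means of these groups, 5.45 and 5.27, lay under the median of all genes (5.51). The gene rose 2.65-fold (log2 1.41, SE 0.189, adjusted p = 0.00501 by limma) and fell 3.01-fold (log2 -1.59, adjusted p = 0.00342).

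Asns, asparagine synthetase, and Nupr1, a small stress-induced chromatin protein, went below the M-CSF level when nutlin-3a was present. Asns read 7.96 and 8.68 with M-CSF, 9.44 and 9.20 with FSL-1, and 7.31 and 7.14 with both agents. It rose by 1.00 (SE 0.226, adjusted p = 0.0391) and fell 4.27-fold (adjusted p = 0.00228), ending 1.09 below M-CSF on the log2 scale (limma, adjusted p = 0.0217). Its M-CSF arrays differed by more than those of any other gene of the 31. Nupr1 was much tighter, at 7.69 and 7.67 with M-CSF, 8.76 and 8.75 with FSL-1, and 6.90 and 6.99 with both agents. It rose 2.11-fold (adjusted p = 0.00148), fell 3.50-fold (adjusted p = 0.00024) and was 1.66-fold lower than M-CSF (limma, adjusted p = 0.00532), and each of these calls was also made with any 1 of the compared arrays left out.

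Of the transcription factors, Atf5, whose message is also translated preferentially under stress, followed the pattern of Atf4. It read 8.80 and 8.76, then 9.47 and 9.61, then 8.30 and 8.58 in the M-CSF, FSL-1 and combined groups. Its rise was 0.76 (limma, adjusted p = 0.0159) and its fall 1.10 (adjusted p = 0.00388). Atf3, an early stress factor that restrains cytokine genes in macrophages and is also a known p53 target, read 10.20 and 10.35, 10.87 and 11.06, and 10.54 and 10.63. It rose by 0.69 (limma, adjusted p = 0.0176), and its values with both agents lay between the other groups (-0.38 against FSL-1, adjusted p = 0.13, and 0.31 against M-CSF, adjusted p = 0.178).

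The C/EBP partners of ATF4 differed from each other. Cebpb, which drives inflammatory and acute-phase genes in macrophages, read 7.62 and 7.58 with M-CSF, 8.56 and 8.87 with FSL-1, and 8.02 and 8.26 with both agents. It rose 2.17-fold (limma, adjusted p = 0.00444), and the values with both agents lay between the other groups, with -0.58 against FSL-1 (adjusted p = 0.06) and 0.54 against M-CSF (adjusted p = 0.0588). Cebpg, a heterodimer partner of ATF4, read 8.54 and 8.46, 8.41 and 8.59, and 7.94 and 7.90. It did not differ detectably with FSL-1 (log2 0.00, 95% interval -0.28 to 0.27) and fell by 0.57 with nutlin-3a (SE 0.12, limma, adjusted p = 0.0319).

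Ppp1r15a encodes GADD34, which brings a phosphatase to eIF2 and ends the arrest of translation. It read 7.03 and 6.98 with M-CSF, 7.80 and 7.85 with FSL-1, and 7.05 and 7.19 with both agents, so that the last group lay just above M-CSF. It rose 1.77-fold (limma, adjusted p = 0.006) and fell 1.63-fold (adjusted p = 0.0129).

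The 4 sensors and their factors passed in no comparison in limma's fit (adjusted p under 0.05). At an unadjusted p under 0.05, which 10.4% to 11.9% of all genes pass in a given direction, 2 of the 4 passed as lower with FSL-1, 1 with nutlin-3a and 1 with both agents against M-CSF, counts too small to be read as a direction. Ern1 read 8.75 and 8.55 with M-CSF, 8.78 and 8.83 with FSL-1, and 8.97 and 8.73 with both agents, and its change with FSL-1 was 0.16 (95% interval -0.16 to 0.47). Eif2ak3 read 7.78 and 7.57, 7.15 and 7.40, and 7.48 and 7.37, so that both FSL-1 arrays lay below both M-CSF arrays (-0.40, interval -0.72 to -0.08, adjusted p = 0.143). Atf6 was similarly placed, at 9.84 and 9.75, 9.40 and 9.50, and 9.52 and 9.40, with -0.35 for FSL-1 (interval -0.62 to -0.07, adjusted p = 0.139).

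Neither the PERK nor the ATF6 message passed with FSL-1 in the fit above, and no direction is read from these values. Xbp1, the substrate of IRE1 and a factor of secretory cells, read 10.19 and 10.33, 10.33 and 10.38, and 10.04 and 9.94. Its M-CSF and FSL-1 arrays met at 10.33, and both arrays with nutlin-3a lay below the other 4 (-0.36 against FSL-1, interval -0.64 to -0.09, limma, adjusted p = 0.118). With limma's variances moderated along a trend and robustly, Atf6 passed as lower with FSL-1 and Xbp1 as lower with nutlin-3a.

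Of the 13 chaperones and folding enzymes measured, 4 rose with FSL-1 (median 0.30) and 7 fell with nutlin-3a (median -0.65), and all 13 had both arrays with nutlin-3a below both FSL-1 arrays. Of all genes, 3.91% rose with FSL-1, 4.12% fell with nutlin-3a and 23.7% had such lower arrays. Hspa5 encodes BiP, the main ER Hsp70 chaperone, which holds the sensors inactive until unfolded proteins draw it away. It read 9.81 and 9.86 with M-CSF, 10.28 and 10.51 with FSL-1, and 9.47 and 9.33 with both agents, in 3 separate ranges. It rose by 0.56 (SE 0.128, limma, adjusted p = 0.0399) and fell 1.99-fold (adjusted p = 0.0046), with -0.43 against M-CSF (adjusted p = 0.0774).

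Among its co-chaperones, Dnajb9 (ERdj4), an IRE1-XBP1 target that holds IRE1 in check, changed most. It read 8.59 and 8.40 with M-CSF, 9.70 and 9.68 with FSL-1, and 8.52 and 8.34 with both agents. The first and last groups overlapped, and the FSL-1 arrays lay more than 1 log2 unit above them. The rise was 2.29-fold (SE 0.127 on the log2 scale, limma, adjusted p = 0.00164) and the fall 2.40-fold (adjusted p = 0.00165), and both passed with any 1 of the compared arrays left out. Its window held none of the 6 patterns. Dnajc3 (P58IPK), a co-chaperone that also inhibits eIF2 kinases, read 9.53 and 9.46, 9.66 and 9.82, and 9.29 and 8.98, and fell by 0.61 with nutlin-3a (adjusted p = 0.0462). Dnajb11 (ERdj3), which hands substrates to BiP, read 9.06 and 9.21, 9.41 and 9.45, and 9.06 and 8.92, with changes of 0.30 and -0.44 that did not pass (adjusted p = 0.21 and 0.0772).

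Hyou1, a large Hsp70 relative that releases ADP from BiP, and Manf, a secreted factor that binds BiP, also rose with FSL-1. Hyou1 read 8.79 and 9.05 with M-CSF, 9.49 and 9.55 with FSL-1, and 9.16 and 9.05 with both agents; it rose by 0.60 (limma, adjusted p = 0.034), and its difference from FSL-1 with nutlin-3a was -0.41 (adjusted p = 0.111). Manf was dim, at 5.36 and 5.67, 6.30 and 6.35, and 5.30 and 5.31, near the median of all genes in 2 of the groups. It rose by 0.81 (adjusted p = 0.0121) and fell 2.03-fold (limma, adjusted p = 0.00507). Sdf2l1, which works with BiP and ERdj3, read 9.35 and 9.55, 9.84 and 10.11, and 9.18 and 9.25. Its change with FSL-1 was 0.53 (adjusted p = 0.0661), and it fell by 0.76 with nutlin-3a (limma, adjusted p = 0.0197).

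Pdia6 and Hsp90b1 were not called with FSL-1 but fell below the M-CSF level with nutlin-3a. Pdia6, a protein disulfide isomerase that also limits IRE1 activity, read 10.64 and 10.87 with M-CSF, 10.96 and 11.02 with FSL-1, and 9.95 and 9.86 with both agents. The M-CSF and FSL-1 arrays were close together and the last 2 arrays well below. It fell 2.12-fold against FSL-1 (limma, adjusted p = 0.00293) and 1.80-fold against M-CSF (adjusted p = 0.00484), and both calls were made with any 1 of the compared arrays left out. Hsp90b1 (GRP94), the ER Hsp90 that folds Toll-like receptors and integrins, read 11.77 and 11.95, 12.05 and 12.15, and 11.39 and 11.27. It fell by 0.77 against FSL-1 (adjusted p = 0.0129) and by 0.53 against M-CSF (limma, adjusted p = 0.0372).

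The lectin chaperones and their partner gave no call. Calreticulin (Calr), its membrane-bound relative calnexin (Canx) and Pdia3 (ERp57), the disulfide isomerase that works with both, had changes of 0.01 to 0.22 with FSL-1 and -0.50 to -0.29 with nutlin-3a. Calr read 11.58 and 11.70, 11.78 and 11.83, and 11.37 and 11.40. Canx read 11.97 and 12.06, 12.06 and 11.99, and 11.80 and 11.66, with M-CSF and FSL-1 overlapping. Pdia3 read 11.00 and 11.24, 11.31 and 11.37, and 10.77 and 10.90. In all 3 genes both arrays with nutlin-3a lay below the other 4, and none of the differences passed (limma, adjusted p 0.0636 to 0.205 against FSL-1). Creld2, a secreted ER stress protein, read 8.87 and 8.93, 9.11 and 9.54, and 8.62 and 8.73, with an adjusted p of 0.167 for FSL-1 (0.43) and 0.0519 for nutlin-3a (-0.65). Of the 7 genes with an ERSE match, Hspa5 alone rose with FSL-1, and Hspa5, Hsp90b1, Pdia6 and Dnajc3 fell with nutlin-3a. Among the measured chaperones with a window but no ERSE match, Dnajb9 rose with FSL-1 and Dnajb9 and Sdf2l1 fell with nutlin-3a. Dnajb11 and Pdia3 did not pass. The shares of all genes were 3.91% for the rise and 4.12% for the fall. A relation between the match and the calls was not tested.

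The degradation genes gave 1 call. Herpud1, an ER membrane protein that organises the HRD1 ubiquitin ligase, read 10.06 and 10.01 with M-CSF, 10.38 and 10.55 with FSL-1, and 9.42 and 9.35 with both agents. Its groups were fully separate, with the M-CSF arrays in the middle. The change with FSL-1, 0.43, did not pass (adjusted p = 0.077), and it fell 2.11-fold with nutlin-3a (SE 0.12, adjusted p = 0.00244) and 1.56-fold against M-CSF (limma, adjusted p = 0.0135). Sel1l, the adaptor of HRD1, read 10.26 and 10.36, 10.33 and 10.51, and 10.23 and 10.17, with changes of 0.11 (interval -0.17 to 0.39) and -0.22 (interval -0.50 to 0.07). Edem1, which takes misfolded glycoproteins to degradation, read 10.49 and 10.74, 10.62 and 10.72, and 10.22 and 10.15, with -0.48 for nutlin-3a (adjusted p = 0.0693). Its dimmer probe set gave -0.14.

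**Figure D2:**
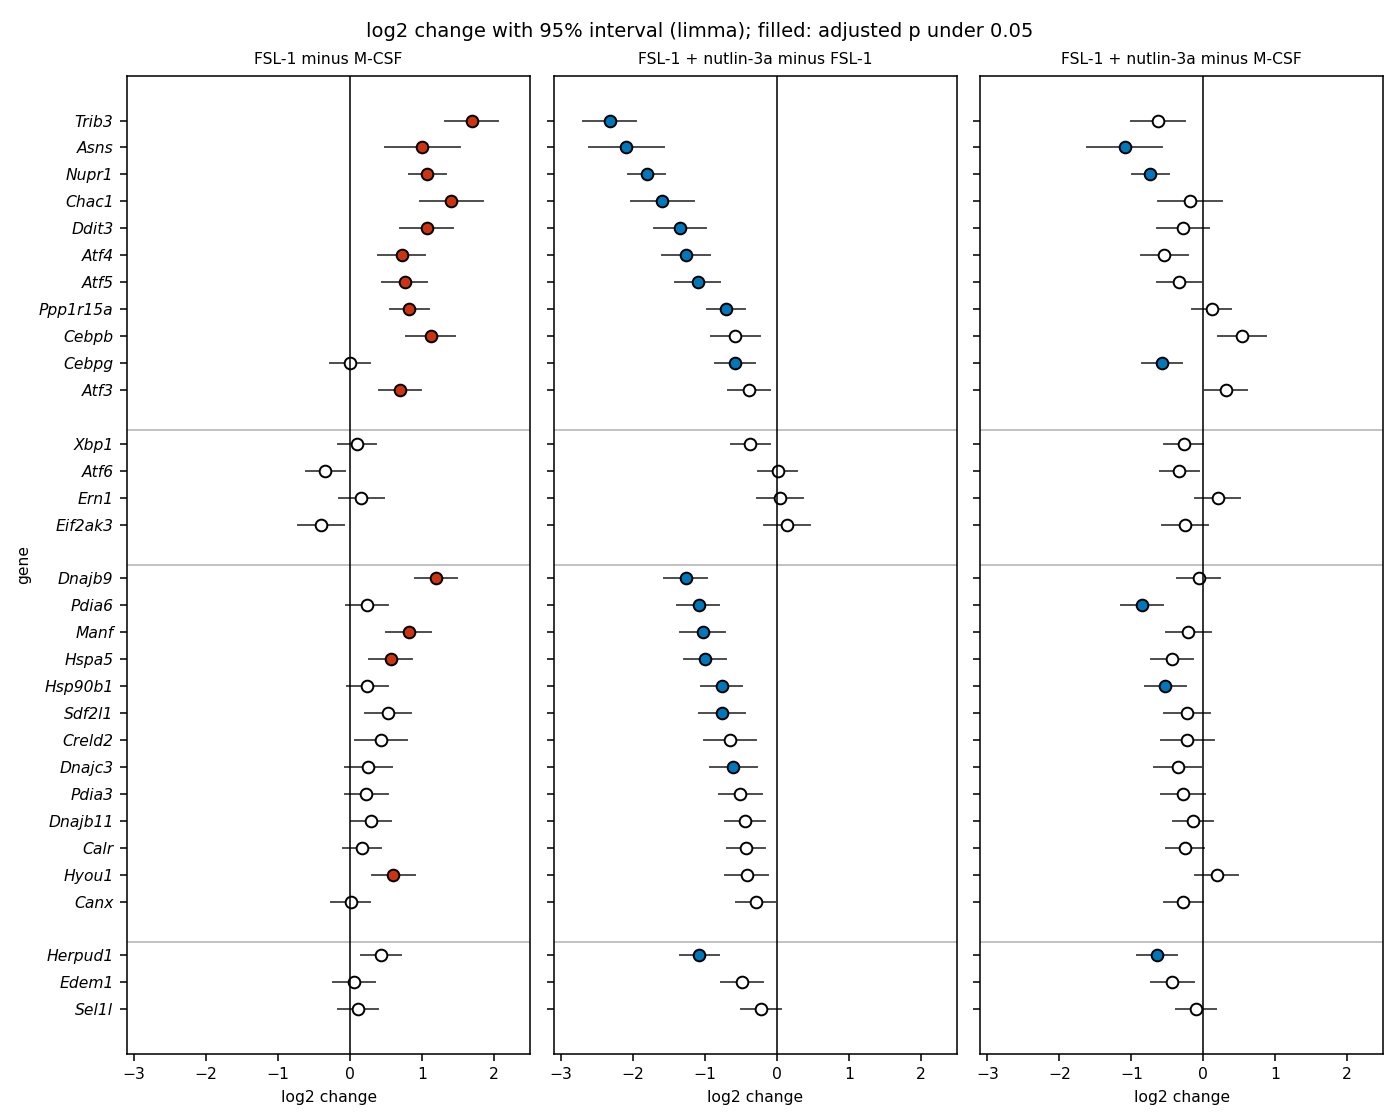
Points show the log2 change of each of the 31 genes in the 3 comparisons, lines its 95% interval from limma, and filled points an adjusted p under 0.05 (red rose, blue fell). FSL-1 gave 14 filled points on the right, nutlin-3a 17 on the left, and FSL-1 + nutlin-3a against M-CSF 6 on the left.

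Beyond the 31 genes, 126 genes of related lists were measured. Over these lists 22 rose and 0 fell with FSL-1 (64 and 1 at an unadjusted p), 2 rose and 38 fell with nutlin-3a, and 13 rose and 16 fell with both agents against M-CSF (limma, adjusted p under 0.05). Of all genes, 3.91% rose and 2.95% fell with FSL-1, 2.38% and 4.12% with nutlin-3a, and 4.58% and 4.94% with both agents against M-CSF. At an unadjusted p under 0.05 each of these shares was 10.4% to 11.9%. Of 24 further ATF4 targets measured, 8 rose and 0 fell with FSL-1 (17 and 0 at an unadjusted p; median 0.58), 16 fell and 1 rose with nutlin-3a (median -0.89), and 9 fell and 5 rose against M-CSF.

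The falls with the smallest p were in amino acid uptake and synthesis. Slc7a5, the LAT1 transporter of large neutral amino acids, read 7.82 and 8.50 with M-CSF, 9.09 and 8.78 with FSL-1, and 5.97 and 6.33 with both agents. It fell 6.90-fold against FSL-1 (limma, adjusted p = 0.000808) and 4.02-fold against M-CSF (adjusted p = 0.00159). Psat1, of serine synthesis, read 6.38 and 6.82, 7.37 and 7.12, and 4.84 and 4.91, and fell 5.17-fold (adjusted p = 0.000371) and 3.32-fold against M-CSF (limma, adjusted p = 0.000657). Slc38a2, the SNAT2 transporter of small neutral amino acids, differed in that it was level between M-CSF (10.11 and 10.24) and FSL-1 (10.24 and 10.14) and fell 3.07-fold with nutlin-3a to 8.65 and 8.49 (limma, adjusted p = 0.000464). Aldh18a1, the first enzyme of proline synthesis from glutamate, rose by 1.20 and fell by 1.80, and the tryptophanyl-tRNA synthetase Wars, which is also a known interferon-induced gene, rose by 0.79 and fell by 0.89 (adjusted p = 0.00729 to 0.0132 for the rises and 0.00151 to 0.00956 for the falls, limma). With 1 of the 4 compared arrays left out, the rise of Aldh18a1 failed without FSL-1 replicate 1, and the rise and the fall of Wars each passed in 1 case of 4.

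The other 8 of the 24 did not fall with nutlin-3a: Ddit4 rose and 7 did not pass. Slc7a11, the cystine-glutamate exchanger, which NRF2 also induces, read 4.97 and 4.81 with M-CSF, 9.69 and 9.50 with FSL-1, and 10.50 and 9.97 with both agents. It rose 26.0-fold with FSL-1 (log2 4.70, limma, adjusted p = 1.14e-05), and the further difference with nutlin-3a was 0.64 (adjusted p = 0.0853). The dimmer probe set of the gene gave 1.32 and 0.50. Sesn2 and Ddit4, inhibitors of mTORC1 signalling that are also known p53 targets, were highest with both agents. Sesn2 read 8.35 and 8.10, 8.86 and 8.97, and 9.51 and 9.29, a rise of 1.18 against M-CSF (limma, adjusted p = 0.00179), and Ddit4 read 6.31 and 5.95, 5.83 and 6.32, and 7.04 and 7.11, a rise of 1.00 against FSL-1 (adjusted p = 0.0223). Vldlr, a lipoprotein receptor, read 4.96 and 5.15, 5.65 and 5.67, and 6.13 and 6.00, and rose by 1.01 against M-CSF (limma, adjusted p = 0.002). Slc3a2, the heavy chain that Slc7a5 and Slc7a11 both pair with, was picked out after its values were seen: it rose by 0.63 with FSL-1 and 0.50 against M-CSF (limma, adjusted p = 0.0264 and 0.0479), with -0.13 for nutlin-3a (adjusted p = 0.646). With 1 of the 4 compared arrays left out, the calls of Slc7a11, Sesn2 and Vldlr against M-CSF were made in all cases and that of Ddit4 against FSL-1 only without FSL-1 replicate 2.

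**Figure D3:**
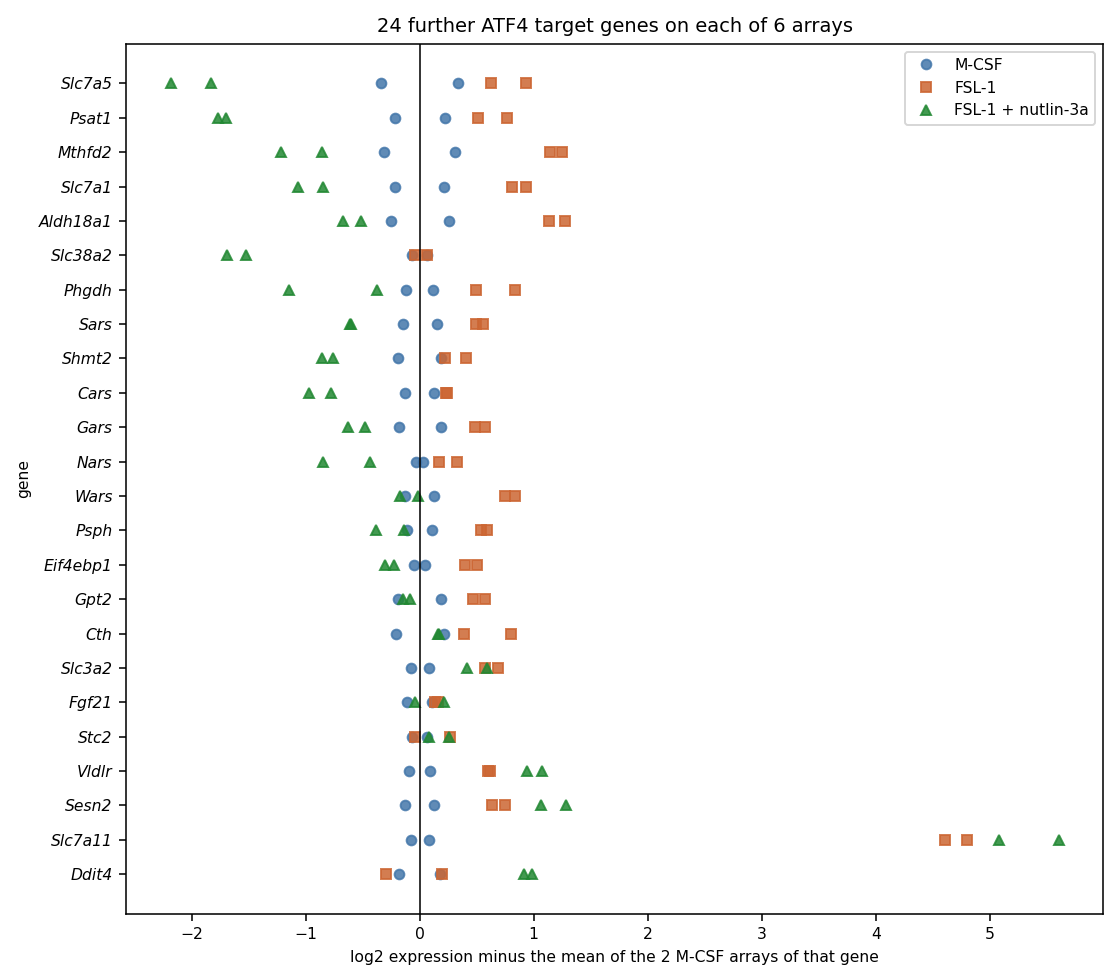
Each row is 1 of 24 further ATF4 target genes and each symbol 1 array, placed by log2 expression minus the mean of the gene's 2 M-CSF arrays. In 17 rows both triangles (FSL-1 + nutlin-3a) lie left of both squares (FSL-1), and in 4 rows they lie right of them.

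Of 23 ER folding enzymes outside the 31 genes, 5 rose and 0 fell with FSL-1 (12 and 0 at an unadjusted p), and 10 fell and 0 rose with nutlin-3a (15 and 3). The shares of all genes were 3.91% for the rise and 4.12% for the fall. Ero1a, the oxidase that recharges disulfide isomerases, read 9.004 and 9.071 with M-CSF, 10.68 and 10.69 with FSL-1, and 9.67 and 9.59 with both agents. It rose by 1.64 (limma, adjusted p = 0.000172), fell by 1.05 (adjusted p = 0.00215) and was still 0.59 above M-CSF (adjusted p = 0.0145). Fkbp11, a prolyl isomerase of secretory cells, read 5.10 and 5.30, 6.64 and 7.04, and 4.87 and 5.21, rising by 1.64 (limma, adjusted p = 0.00182) and falling by 1.80 (adjusted p = 0.00154). The export receptor Lman1 rose by 0.84 (adjusted p = 0.0113), and the thioredoxin Txndc11 fell by 0.70 with nutlin-3a (limma, adjusted p = 0.0112). Lman1 also fell with nutlin-3a, by 0.69, and Txndc11 also rose with FSL-1, by 0.54 (limma, adjusted p = 0.0259 and 0.0276). Against M-CSF 2 of the 23 rose, Ero1a and Dnajc1 (0.50), and 2 fell, Dnajc10 (-0.78) and Fkbp2 (-0.82; adjusted p = 0.00706 to 0.0481, limma). Such calls were made for 4.58% and 4.94% of all genes, and counts this small are not read as a result about the list. The rise of Lman1 and the fall of Txndc11 each passed in 1 case of 4 with a compared array left out, those of Ero1a and Dnajc1 against M-CSF in none, that of Dnajc10 in 3, that of Fkbp2 in 2, and the other 4 calls of Ero1a and Fkbp11 in all.

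Protein entry into the ER gave calls in the same directions. Of 22 genes of the translocon and of signal peptide processing, 4 rose with FSL-1 and 0 fell (15 and 0 at an unadjusted p), and 8 fell with nutlin-3a and 0 rose (15 and 0). Among all genes 3.91% rose with FSL-1 and 4.12% fell with nutlin-3a. Serp1, which stabilises new proteins at the translocon, rose by 1.12 with FSL-1 (limma, adjusted p = 0.00142) and was 0.74 above M-CSF with both agents (adjusted p = 0.00601). Sec61g of the channel and Srprb of the signal recognition receptor rose by 0.66 and 0.60 (adjusted p = 0.0159 and 0.022, limma). Sec61g also fell with nutlin-3a, by 0.66 (limma, adjusted p = 0.0183). With nutlin-3a the signal peptidase subunits Spcs2 and Sec11c fell by 1.11 and 0.85, and Ostc of the oligosaccharyltransferase by 0.95 (adjusted p = 0.00416, 0.00489 and 0.00865, limma), while a dimmer Spcs2 probe set gave -0.57. Against M-CSF 2 of the 22 rose, Serp1 and Srprb (0.48), and 3 fell: Sec11c by 0.59, Spcs2 by 0.58 and Sec11a by 0.55 (adjusted p = 0.014 to 0.0408, limma). Such calls were made for 4.58% and 4.94% of all genes, and counts this small are not read as a result about the list. Leaving out a compared array, both calls of Serp1 and the fall of Spcs2 with nutlin-3a were made in all 4 cases, those of Sec61g and Srprb in none, and the 3 falls against M-CSF in at most 1. With nutlin-3a the call of Sec11c failed without FSL-1 replicate 1, and that of Ostc without FSL-1 replicate 1 or nutlin-3a replicate 1.

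In the remaining lists calls were few, and 1 call in so short a list is not read as a result about that list. The shares of all genes were 3.91% that rose with FSL-1 and 4.12% that fell with nutlin-3a. Against M-CSF 4.58% rose and 4.94% fell. Of 17 further degradation genes 0 passed with FSL-1 (7 were higher and 0 lower at an unadjusted p), and Selenos and Derl1, partners in moving substrates out of the ER, fell with nutlin-3a by 0.74 and 0.53 (limma, adjusted p = 0.0158 and 0.0459). Of 12 genes of eIF2 kinases, eIF2, eIF2B and the phosphatase, Eif2b3 alone rose with FSL-1 (0.67, adjusted p = 0.0238) and Eif2s2 alone fell with nutlin-3a (-0.85, limma, adjusted p = 0.0149). Against M-CSF Impact, an inhibitor of GCN2 activation, rose by 0.68 and Eif2s2 fell by 0.77 (limma, adjusted p = 0.00725 and 0.014). The calls of Selenos, Derl1 and Eif2b3 were lost with any compared array left out, that of Eif2s2 with nutlin-3a in 3 cases of 4 and against M-CSF in 2, and that of Impact in none. None of 8 membrane-bound stress factors and ATF6 proteases passed in any of the 3 comparisons, and at an unadjusted p 1, 0 and 2 were higher and 0 lower.

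Among 7 transcripts reported as cleaved by IRE1, 0 passed with FSL-1 (2 were higher and 1 lower at an unadjusted p). Hgsnat, a lysosomal enzyme of heparan sulfate breakdown, read 9.98 and 9.97 with M-CSF, 9.61 and 9.49 with FSL-1, and 12.002 and 11.888 with both agents. It rose by 2.39 with nutlin-3a (limma, adjusted p = 0.000124) and stood 1.97 above M-CSF (adjusted p = 6.16e-05). Against M-CSF 2 of the 7 rose and 1 fell: the growth factor receptor Pdgfrb also rose, by 0.57 (adjusted p = 0.0329), and the myelin protein Pmp22 fell by 0.56 (limma, adjusted p = 0.0167), both calls being lost with any compared array left out. Of 13 heat shock genes outside the ER, mostly cytosolic, 4 rose with FSL-1: Hsph1 (0.76, adjusted p = 0.0139), Hsp90aa1 (0.67, adjusted p = 0.0259), Hsf2 (0.57, limma, adjusted p = 0.0284) and the mitochondrial chaperone Hspd1 (0.56, adjusted p = 0.0286). With nutlin-3a Hspd1 alone of the 13 fell (-0.57, adjusted p = 0.0285, limma), and against M-CSF the co-chaperone Bag3 alone rose (0.73, adjusted p = 0.0106, limma). Leaving out a compared array, the call of Bag3 passed in 2 cases of 4 and the other heat shock calls in at most 1, and both calls of Hgsnat in all. Among all genes 3.91% rose with FSL-1 and 4.12% fell with nutlin-3a, and against M-CSF 4.58% rose and 4.94% fell. No difference between lists was tested.

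**Figure D4:**
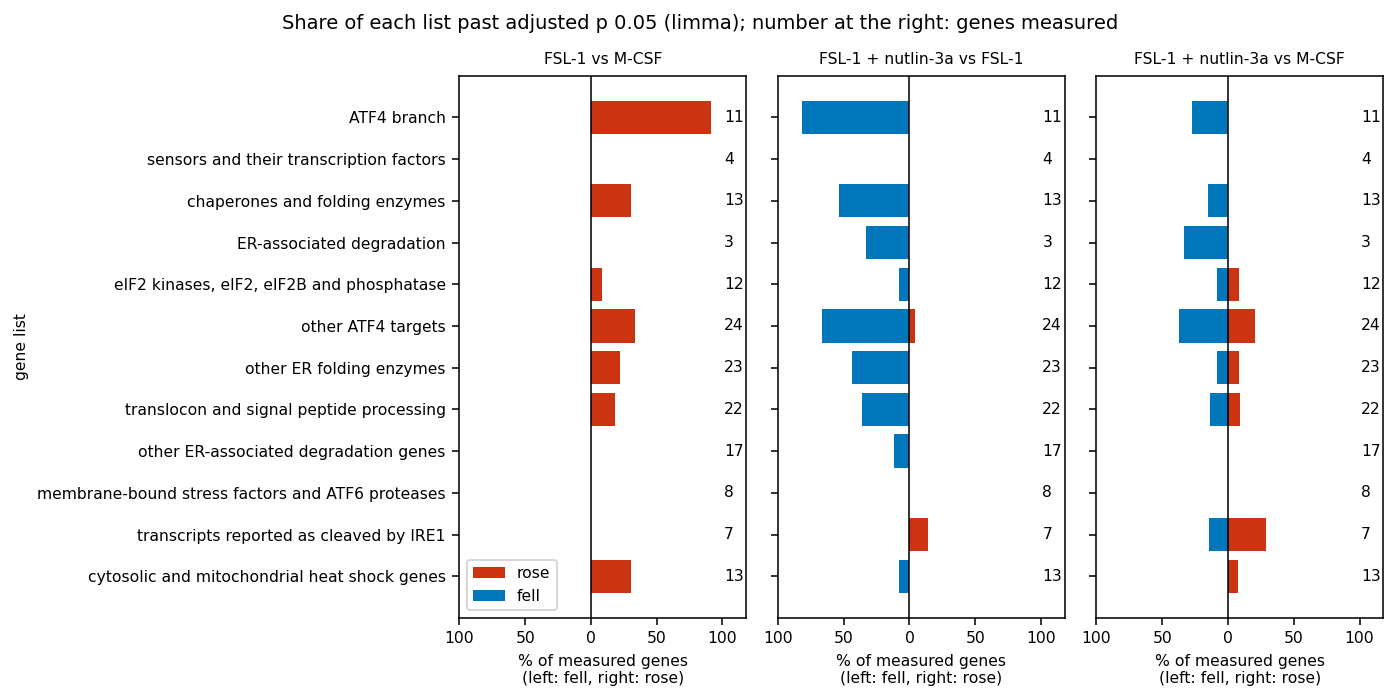
Bars show, for each gene list and each of the 3 comparisons, the percentage of measured genes that rose (right, red) or fell (left, blue) at an adjusted p under 0.05 in limma, with the number measured at the right. The ATF4 branch had 90.9% of its 11 genes up with FSL-1 and 81.8% down with nutlin-3a, and the 4 sensors and 8 membrane-bound factors had no bar.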

How the data were processed

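Total RNA of the 6 samples was amplified (NuGEN kit) and biotin-labelled, per the labels' protocols. The authors deposited log2 values for each probe set; the submitters' processing notes name RMA and Affymetrix Expression Console 1.4. RMA equalises the arrays, so a shift of most genes would not show, and it narrows differences of dim probe sets. Array number, 2 per group, limits the precision.

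Of 34390 probe sets, 23521 name 1 gene in the platform annotation, 1814 several and 9055 none. Where a gene had more than 1, the brightest on average was used. Symbols were checked through the RefSeq gene table (GRCm38.p6). The lmFit and eBayes steps of limma 3.58.1 (R 4.3.3) were run on all 22180 genes and 6 arrays, with 3 residual and 4.88 prior degrees of freedom. A gene was called, and is written as having risen or fallen, at a Benjamini-Hochberg adjusted p under 0.05 over all genes.

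The members and lists were chosen with earlier results of these data known. All measured members are named, and from each other list up to 3 called genes with the smallest p in each direction and comparison were eligible. Alternatives were trend and robust moderation, quantile normalization once more, centring, mean of probe sets, a minimum level, fits without the third group, a replicate block, array weights and leaving out each array. The block with M-CSF numbers crossed was added after seeing the data. Fragments were copied from the RefSeq promoter windows.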

Additional observations from a re-analysis of the deposited data

How the results depend on the processing

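With trend and robust moderation, 2744, 2658 and 3337 genes were called in FSL-1 against M-CSF, FSL-1 + nutlin-3a against FSL-1, and FSL-1 + nutlin-3a against M-CSF, in place of 1521, 1441 and 2110, and with genes under the median left out 2682, 2579 and 3290. Among the stress genes, trend and robust moderation gave 1 fall with FSL-1, 27 falls with nutlin-3a, and 14 falls and 2 rises against M-CSF. With genes under the median left out these were 2, 26, 11 and 1, and with genes under the 25th percentile left out 10 fell and 1 rose against M-CSF. Quantile normalization once more gave 1 rise there, and so did the crossed block. Leaving out 1 array gave 451 to 1299 genes with 5 to 12 stress gene rises for FSL-1, 352 to 1212 genes with 11 to 16 falls for nutlin-3a, and 1158 to 1529 genes with 2 to 5 falls against M-CSF; the lone array of a group is then assumed to vary like the others. Differences between replicates 1 and 2 correlated across genes at -0.188 (M-CSF and FSL-1), 0.0175 (M-CSF and FSL-1 + nutlin-3a) and -0.0248 (FSL-1 and FSL-1 + nutlin-3a). Each group gave only 1 such difference, so these values cannot settle whether the replicate numbers pair the samples. The replicate block gave 1167, 1005 and 1725 genes, with 11 rises, 15 falls and 5 falls of stress genes: Asns, Hspa5 and Hyou1 no longer passed as rises, nor Cebpg and Dnajc3 as falls with nutlin-3a, nor Hsp90b1 against M-CSF. With the M-CSF numbers crossed it gave 1278, 1148 and 1971 genes, with 13, 17 and 5.

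Changes of sign were limited to values that had not passed. For FSL-1, quantile normalization gave -0.0494 for Canx and -0.0368 for Slc38a2. Leaving out 1 array gave -0.0332 to 0.0528 for Canx, -0.0498 to 0.0774 for Slc38a2, -0.094 to 0.0855 for Cebpg, -0.298 to 0.193 for Ddit4 and -0.0689 to 0.177 for Edem1. For nutlin-3a, centring gave -0.0022 for Atf6, and leaving out 1 array -0.0458 to 0.07 for Atf6 and -0.0793 to 0.169 for Ern1. Against M-CSF, leaving out 1 array gave -0.16 to 0.0273 for Dnajb9, -0.471 to 0.1 for Chac1 and -0.222 to 0.0316 for Wars. The cause was not tested. Signal over background is unknown without detection calls, which limits dim genes such as Manf and Chac1 most.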
